A study of Homo sapiens with 6 samples.

Results

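The scavenger receptors for modified lipoprotein were described as 9 genes of 35009 in the deposited gene table: CD36, MSR1, OLR1, MARCO, SCARB1, SCARB2, LRP1, STAB1 and CD163. They were chosen by name, and each symbol had 1 row. RNA was sequenced from macrophages of the THP-1 line, which derives from a human monocytic leukaemia, exposed to LDL (low-density lipoprotein) in its oxidised form, ox-LDL. The 3 control libraries had the genotype label control, and the 3 siMCT4 libraries were labelled MCT4 deficiency; both groups carry ox-LDL in their titles. The lipoprotein's dose, the time and the differentiating agent are not given in the labels. Nor do they say whether controls received a non-targeting siRNA, so MCT4 loss and the siRNA itself cannot be told apart, and there is no group without ox-LDL. The labels do not give separate cultures for the libraries, so the p-values measure the spread between these samples, which may be technical.

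Scavenger receptors bind oxidised or acetylated lipoprotein and other polyanionic ligands, and most bring them into the cell. They are not shut down when cholesterol accumulates, and macrophages of the artery wall become lipid-laden foam cells largely through them. Some receptors of the group serve other cargo: SCARB1 exchanges cholesterol with high-density lipoprotein, SCARB2 works in the lysosome membrane, and CD163 takes up haemoglobin bound to haptoglobin.

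Total counts ran from 61880619 to 69181938 per library. SLC16A3, which encodes MCT4, the monocarboxylate transporter that exports lactate, had 115, 100.6 and 108 counts per 1000000 counts (CPM) in controls and 10.8, 11.0 and 13.4 in siMCT4, as labelled. The third siMCT4 library stood apart: its mean chi-square per gene against the other two siMCT4 libraries was 53.6 and 61.3, while that pair gave 9.13 and control pairs 12.7 to 17.5. A set of 1295 genes had at least 60% GC and a mean log2 CPM above 2. Their median log2 ratios to the control mean were -0.53, -0.57 and -0.18 in siMCT4 libraries 1, 2 and 3. Values for library 3 alone and with GC correction are given below where they bear on a receptor.

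In siMCT4 cells the repertoire of receptor transcripts was smaller and differently composed. OLR1, which encodes LOX-1, rose 8.38-fold, while CD36, MSR1, MARCO, SCARB1, SCARB2, LRP1 and CD163 fell. STAB1 was near 0 throughout. Of the 8 receptors with enough counts to be tested, 1 was higher and 7 were lower at an adjusted p under 0.05 by edgeR. Among all 19944 tested genes 41.4% were called, 20.6% higher and 20.8% lower, and among genes with a mean FPKM of at least 5, 63.1% were called. FPKM are fragments per kilobase of gene and 1000000 fragments. The groups did not overlap in CPM for 8 of 8 tested receptors, against 55.0% of tested genes. The median log2 change was -0.73 over the tested receptors and -0.01 over all tested genes, and the median absolute change was 1.04 and 0.43. In these bulk samples, fewer cells with a transcript and less transcript per cell cannot be told apart.

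**Figure D1:**
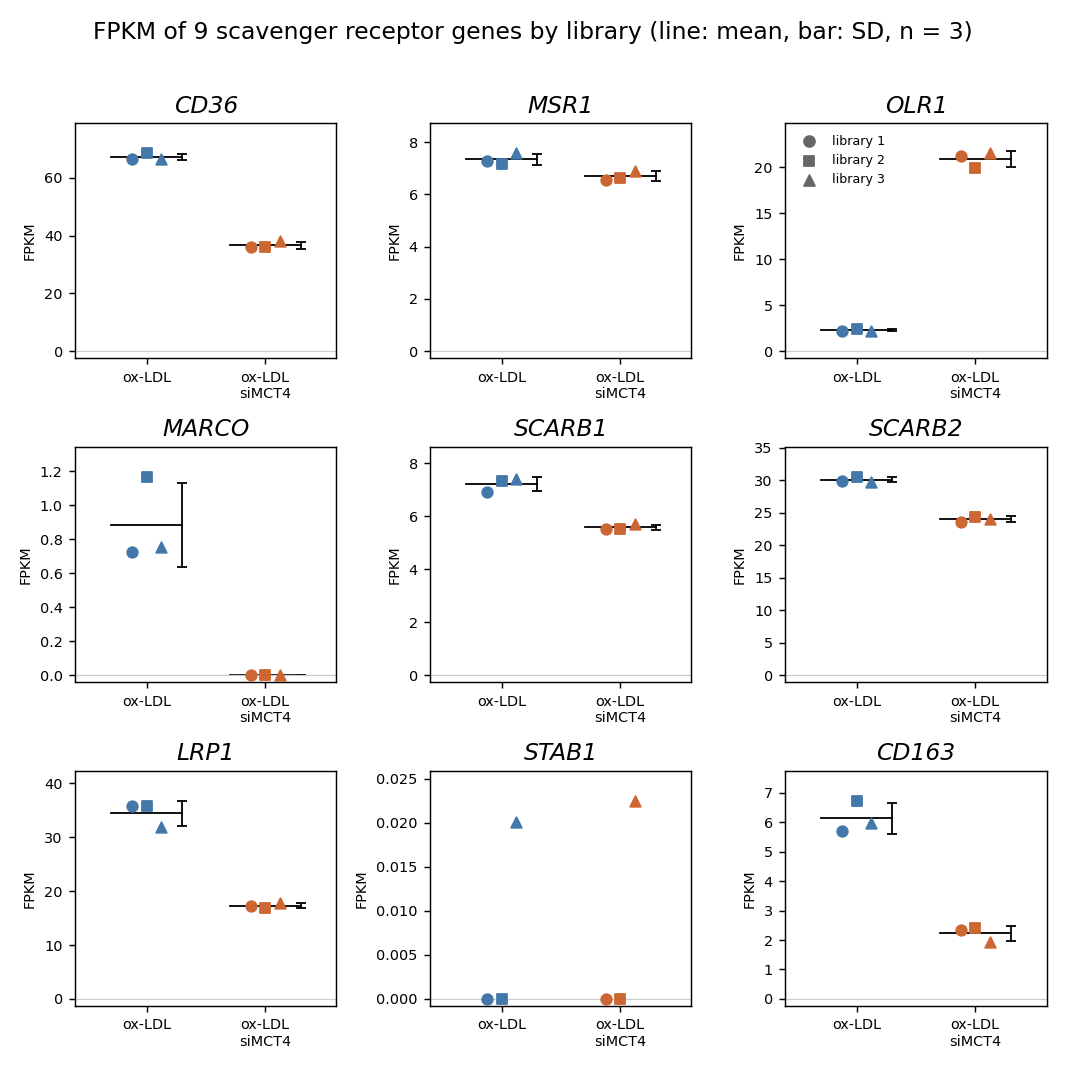
FPKM (vertical axis, linear, from 0) of each receptor gene in the 3 ox-LDL control libraries and the 3 ox-LDL siMCT4 libraries; points are libraries, lines are means and bars SD, both left out for the untested STAB1. OLR1 rises from a mean of 2.31 to 20.9, while CD36 falls from 67.2 to 36.7 and MARCO from 0.883 to 0.

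The order of the receptors, compared per length in FPKM, changed between the groups. Places here, and the shares and ratios between genes that follow, rest on the gene lengths behind the deposited FPKM. Those lengths were not checked against transcript lengths. In controls CD36 stood first at 67.2 ± 1.18, followed by LRP1 at 34.5 ± 2.29 and SCARB2 at 30.0 ± 0.396 (SD, n = 3). MSR1 and SCARB1 followed with overlapping ranges at 7.34 ± 0.219 and 7.21 ± 0.267. CD163, OLR1, MARCO and STAB1 came after them in that order without overlap. In siMCT4 cells CD36 was still first at 36.7 ± 1.18, and SCARB2 was next at 24.0 ± 0.407. OLR1 moved from the seventh place to the third, at 20.9 ± 0.895, above LRP1 at 17.3 ± 0.458. MSR1, SCARB1 and CD163 then followed without overlap, and STAB1 and MARCO were last with overlapping ranges.

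The summed FPKM of the 9 genes was 155, 160 and 152 in controls and 112, 112 and 116 in siMCT4, a ratio of means of 0.729. OLR1 made up 1.48 ± 0.0476% of that sum in controls and 18.4 ± 0.589% in siMCT4 cells. The share of CD36 went from 43.2 ± 0.443% to 32.4 ± 0.432% and that of LRP1 from 22.1 ± 1.07% to 15.2 ± 0.148%. SCARB2, which fell less than the sum, went from 19.3 ± 0.246% to 21.2 ± 0.556%. Per library, CD36 exceeded OLR1 by 29.6, 27.9 and 30.0 times in controls and by 1.69, 1.82 and 1.77 times in siMCT4, ratios of FPKM within a library.

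**Figure D2:**
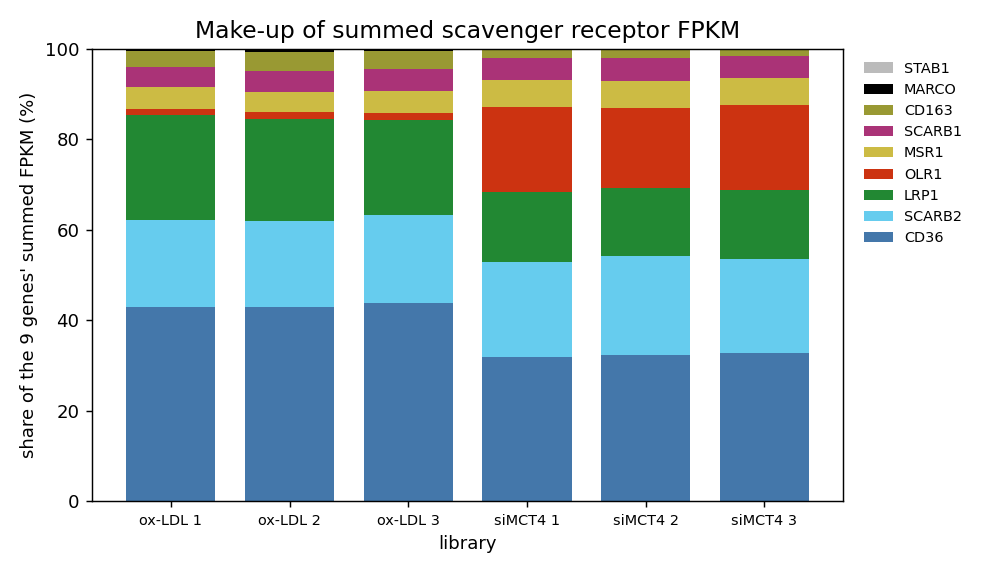
Stacked bars give each receptor's share (vertical axis, percent, 0 to 100) of the summed FPKM of the 9 genes in each of the 6 libraries. The OLR1 segment averages 1.48% in the ox-LDL control libraries and 18.4% in the siMCT4 libraries, and the CD36 segment narrows from 43.2% to 32.4%.

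The DNA before the start sites is shown for 4 receptors whose transcripts fell, since these sequences differ widely in composition and in the short motifs they hold. RefSeq promoter windows (GRCh38.p14, 250 bases before to 50 after a start) were searched for 6 receptors. These gave 11 windows in all because CD36 has 6 start sites. MSR1 was left out of the search, and no window was at hand for OLR1 or SCARB1. The 250 bases before the start are printed 5′ to 3′ on the strand of the gene, and capitals mark a match to a searched motif. CD36 start 2 lies at chr7:80623842-80624091 and CD36 start 5 at chr7:80645999-80646248, both on the plus strand. MARCO is at chr2:118941944-118942193 (plus), LRP1 at chr12:57128233-57128482 (plus) and CD163 at chr12:7503778-7504027 (minus).
CD36 start 2: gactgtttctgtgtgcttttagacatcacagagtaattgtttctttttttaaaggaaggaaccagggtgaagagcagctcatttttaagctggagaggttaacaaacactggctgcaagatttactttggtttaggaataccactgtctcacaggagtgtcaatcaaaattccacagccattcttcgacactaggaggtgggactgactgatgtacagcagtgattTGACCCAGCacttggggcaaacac
CD36 start 5: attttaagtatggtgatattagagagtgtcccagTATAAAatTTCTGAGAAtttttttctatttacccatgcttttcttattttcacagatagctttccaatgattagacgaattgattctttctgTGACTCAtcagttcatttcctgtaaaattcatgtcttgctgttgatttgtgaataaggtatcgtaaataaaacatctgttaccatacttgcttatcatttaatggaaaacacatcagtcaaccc
MARCO: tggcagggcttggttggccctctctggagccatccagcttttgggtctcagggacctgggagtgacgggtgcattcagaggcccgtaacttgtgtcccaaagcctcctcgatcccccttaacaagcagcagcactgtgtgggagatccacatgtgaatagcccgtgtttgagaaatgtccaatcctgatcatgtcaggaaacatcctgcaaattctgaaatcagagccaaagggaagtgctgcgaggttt
LRP1: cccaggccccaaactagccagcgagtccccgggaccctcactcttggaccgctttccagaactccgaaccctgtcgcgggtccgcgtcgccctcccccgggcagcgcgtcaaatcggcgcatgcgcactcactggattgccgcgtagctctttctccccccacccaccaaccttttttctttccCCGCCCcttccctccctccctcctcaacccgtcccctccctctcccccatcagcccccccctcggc
CD163: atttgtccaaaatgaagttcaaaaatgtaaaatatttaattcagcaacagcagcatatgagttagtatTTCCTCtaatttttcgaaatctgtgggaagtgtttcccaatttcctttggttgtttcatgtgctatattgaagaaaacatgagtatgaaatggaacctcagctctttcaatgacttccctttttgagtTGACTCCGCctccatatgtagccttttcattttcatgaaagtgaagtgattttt

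Motifs were searched on both strands over the whole 300-base windows. They were the AP-1 site TGANTCA, the PU.1 core GAGGAA, the antioxidant response element TGACNNNGC, the nuclear receptor hexamer AGGTCA, the gamma-activated site TTCNNNGAA, the E-box CACGTG, the GC box GGGCGG and the TATA box TATAAA. No 2 matches overlapped in the windows shown. CD163 held a PU.1 core at position -182 and an antioxidant response element at -54, counted from the start. CD36 start 2 held an antioxidant response element at -24, and start 5 held an AP-1 site at -124, a gamma-activated site at -208 and a TATA box at -216. The CD36 windows not printed each held a PU.1 core: start 1 at -140, start 3 at 7, start 4 at -119 and start 6 at -23. The windows of starts 3 and 4 overlap, and their PU.1 matches are the same genomic site. The windows of starts 5 and 6 overlap as well. Start 1 also held a TATA box, at -211. LRP1 held 1 GC box, at -66, and MARCO none of the 8 motifs. Of all 34943 RefSeq windows, 27.9% held the PU.1 core, 13.3% the antioxidant response element, 7.72% the AP-1 site, 7.66% the gamma-activated site, 44.9% the GC box and 11.6% the TATA box. GC content of the printed stretches was 33.6% for CD163, 53.2% for MARCO and 67.6% for LRP1.

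CD36 (ENSG00000135218, chr7:80369575-80679274, plus strand; coordinates of genes as in the deposited table, GRCh38) encodes the class B receptor for oxidised LDL and long-chain fatty acids. Its counts were 54368, 52609 and 51461 in controls and 25790, 28263 and 30471 in siMCT4, and its FPKM 66.7, 68.5 and 66.4 against 35.9, 36.1 and 38.0. Each siMCT4 library lay far below each control. CD36 fell by 0.98 in log2 units (SE 0.0405, adjusted p = 3.7e-06), or 1.98-fold. Among the 5902 genes with a mean FPKM of at least 5, 341 (5.78%) fell at least as much as CD36. Its transcript is poor in GC (34.1%), and with GC correction the change was -1.06.

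SCARB1 (ENSG00000073060, chr12:124776856-124882668, minus strand) encodes SR-BI, the other class B receptor of the cell surface, which moves cholesterol to and from high-density lipoprotein. Control libraries held 7720, 7713 and 7855 counts, and siMCT4 libraries 5426, 5914 and 6257. SCARB1 fell by 0.48 in log2 units (SE 0.0479, adjusted p = 0.00021), with no overlap. SCARB2 (ENSG00000138760, chr4:76158737-76234536, minus strand) encodes LIMP-2, a membrane protein of late endosomes and lysosomes. Its FPKM was 29.9, 30.5 and 29.7 in controls and 23.6, 24.4 and 24.1 in siMCT4. The groups stood apart although the step was small: SCARB2 fell by 0.43 (log2, SE 0.0357, adjusted p = 8.4e-05). All 3 class B genes passed the test downwards, by 0.43 to 0.98.

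OLR1 (ENSG00000173391, chr12:10158301-10172138, minus strand) encodes LOX-1, the lectin-like receptor for oxidised LDL best known from endothelium and induced in macrophages by inflammatory signals. Its counts were 517, 532 and 484 in controls and 4300, 4377 and 4855 in siMCT4. In FPKM these were 2.25, 2.45 and 2.21 against 21.3, 19.9 and 21.6. The groups were separated by a wide gap and each was tight within itself. The log2 change was 3.07 (SE 0.0691, adjusted p = 3.1e-07), and 241 of all tested genes (1.21%) rose more. That share is over all 19944 tested genes, those with few counts included, so it is not comparable with the one given for CD36. An exact two-sided permutation test of OLR1 over 20 assignments gave p = 0.1, the smallest that 3 against 3 allows.

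The rise of OLR1 was as large in the library that stood apart: with siMCT4 library 3 alone against the controls, the log2 change was 3.13. Of 5 tested endothelial genes 0 were higher and 1 was lower, TIE1 (-0.48), a call lost with GC correction (-0.16, adjusted p = 0.0928). By library, the list's summed level was 103 to 108 CPM in controls and 51.0 to 76.2 in siMCT4. The endothelial marker CLDN5 had 2 counts in 1 control library and none in siMCT4. KDR changed by 1.46 and did not pass the test (adjusted p = 0.257), and the list's median was -0.58. TMEM52B overlaps the 5′ end of OLR1 on the opposite strand, and rose with it from 12, 8 and 4 counts to 218, 174 and 193. The library preparation marks strand, but the sources used here do not say how strand was counted, so whether the TMEM52B counts are reads of OLR1 was not tested.

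MARCO (ENSG00000019169, chr2:118942194-118994660, plus strand) encodes a class A receptor with a collagenous stalk that binds bacteria, particles and modified LDL. Control libraries held 113, 170 and 112 counts of it, and the siMCT4 libraries 0, 0 and 0. Every siMCT4 library was thus below the reach of these depths, and MARCO was at least 139-fold lower (adjusted p = 0.00016), set against a floor of 3 counts over the siMCT4 group. Even counts exceed odd ones in the table, so mates of a pair may have been counted singly, and a floor of 6 counts gives at least 69.3-fold. These bounds cover counting error only. Even in controls the level was low, at 0.726, 1.17 and 0.757 FPKM.

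MSR1 (ENSG00000038945, chr8:16107878-16567420, minus strand) encodes SR-A, the class A receptor first defined by its uptake of acetylated LDL. Its counts were 4270, 3943 and 4220 in controls and 3375, 3732 and 3970 in siMCT4, and in FPKM it stood at 7.29, 7.15 and 7.58 against 6.54, 6.64 and 6.90. The gap between the groups in FPKM was narrower than the spread within either. MSR1 fell by 0.24 in log2 units (SE 0.0539, adjusted p = 0.0094), the smallest change among the tested receptors. The call was lost in 5 of 19 alternative analyses, among them library 3 alone (-0.18, adjusted p = 0.113) and FPKM rescaled to TPM, a common total per library (-0.04, adjusted p = 0.581).

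LRP1 (ENSG00000123384, chr12:57128483-57213361, plus strand) encodes a large endocytic receptor that takes up apolipoprotein E remnants, aggregated LDL and protease complexes. Its counts were 55911, 52720 and 47305 in controls and 23719, 25248 and 27237 in siMCT4. The lowest control lay well above the highest siMCT4 library. LRP1 fell by 1.11 in log2 units (SE 0.0532, adjusted p = 6.9e-06), close to the fall of CD36, and by 1.04 in library 3 alone. Its longest transcript has 60.1% GC; the change was -0.83 (adjusted p = 2.3e-05) with GC correction and -0.40 (adjusted p = 0.105) with GC and length correction, which ends the call. The part of library composition in the fall of LRP1 was not tested beyond these corrections. STAT6 overlaps the 5′ end of LRP1 on the opposite strand, and with 19314, 18759 and 18508 counts against 20887, 22899 and 19617 it did not pass the test.

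CD163 (ENSG00000177575, chr12:7470813-7503893, minus strand) encodes the scavenger receptor with cysteine-rich domains that clears haemoglobin and haptoglobin complexes and marks alternatively activated macrophages. Its counts were 2491, 2759 and 2479 in controls and 898, 1010 and 826 in siMCT4. The 2 ranges were far apart, with library 3 the lowest. CD163 fell by 1.57 in log2 units (SE 0.106, adjusted p = 3.1e-05), or 2.97-fold. Its paralogue CD163L1, whose gene overlaps it on the same strand, changed by -0.48 and did not pass the test (adjusted p = 0.0974), and reads shared between the pair could not be separated.

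STAB1 (ENSG00000010327, chr3:52495338-52524495, plus strand) encodes stabilin-1, a clearance receptor of alternatively activated macrophages and sinusoidal endothelium. Its counts were 0, 0 and 16 for control and 0, 0 and 18 for siMCT4 libraries, all from library 3 of each group. It did not pass the count filter, and no difference was detectable at this depth.

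**Figure D3:**
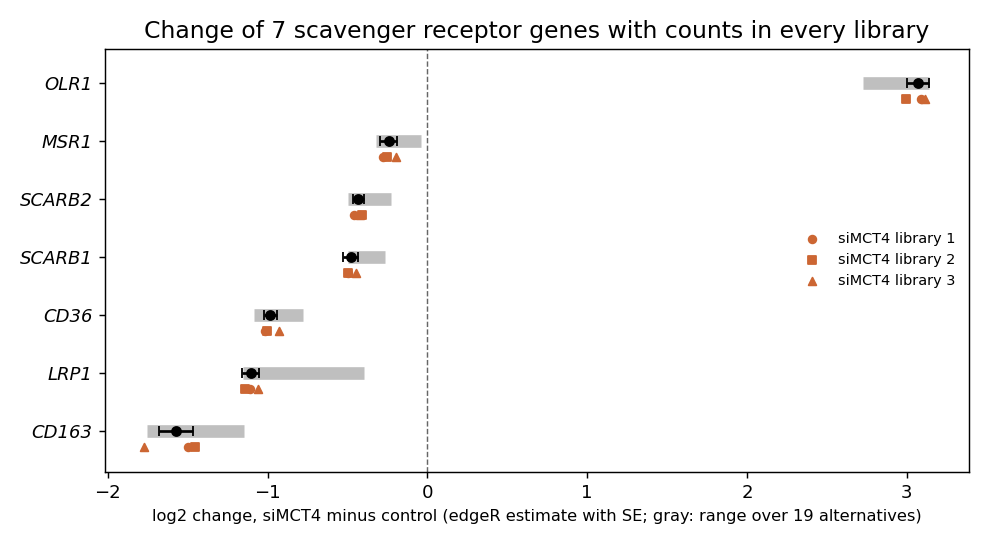
Log2 change of siMCT4 over control (horizontal axis) for the 7 tested receptors with counts in every library: black points with bars are edgeR estimates with SE, orange symbols the 3 siMCT4 libraries against the control mean, and gray bars the range over 19 alternative analyses. MARCO, at 0 in siMCT4, is left out. OLR1 is to the right of 0 and the other 6 to the left; the gray bar of MSR1 ends at -0.04 and that of LRP1 at -0.40.

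By the distance between centred log2 CPM profiles over the 6 libraries, the genes with the most similar pattern were FN3K and MTSS1 for CD36, at distances of 0.0527 and 0.0589, and RAB31 and SLC7A1 for LRP1, at 0.0885 and 0.0957. TNFSF10, which encodes the death ligand TRAIL, and the amino acid transporter SLC7A8 lay nearest to OLR1, with log2 changes of 3.09 and 2.99. PHGDH, the first enzyme of serine synthesis, and CAP2 lay nearest to CD163. MAP1LC3B, an autophagosome protein, and FKBP1A lay nearest to SCARB2, ILVBL and UBL4A to SCARB1, and the mitochondrial ribosome gene MRPL38 to MSR1. For MARCO these were the readthrough gene MROH7-TTC4 and the keratin pseudogene KRT17P6, at distances of 1.51 and 2.45. These were larger than for any other tested receptor. Both genes were at 0 counts in siMCT4, and both have counts that can be shared with near-identical sequence. With 2 groups of 3, likeness rests mostly on the size of the group difference.

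The other genes of the scavenger receptor classes did not follow one direction. Of 16 listed, 12 were tested, of which 3 were higher, 1 was lower and 8 did not pass, with a median log2 change of -0.23. The share called was 33.3%, against 41.4% of all tested genes and 63.1% of genes with a mean FPKM of at least 5. LGALS3BP, a secreted protein with a cysteine-rich scavenger domain, rose from 67.7 ± 3.72 to 247 ± 32.8 CPM (log2 change 1.87). CD44, the hyaluronan receptor, rose by 0.35. CD5L, a secreted macrophage protein, had no counts in the control libraries; siMCT4 libraries held 22, 23 and 17, at least 19.6-fold more against a floor of 3 counts and 9.82-fold against 6, but the call was lost with library 3 alone (adjusted p = 0.0895). CXCL16, a membrane chemokine that also binds oxidised LDL, fell by 0.55. CD68, the endosomal macrophage protein, changed by 0.07 (adjusted p = 0.320) and passed the test upwards in 4 alternatives. Without siMCT4 library 3, 5 genes of this list were higher and 2 lower.

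The lipoprotein receptor family that LRP1 belongs to, with its chaperones and degraders, split evenly, as did all tested genes (20.6% higher, 20.8% lower). Of 15 tested genes among 18, 5 were higher, 5 lower and 5 did not pass, with a median of -0.02. The share called, 66.7%, was near the 63.1% among genes with a mean FPKM of at least 5. VLDLR, a receptor for triglyceride-rich lipoprotein, fell from 188 ± 2.96 to 65.8 ± 2.46 CPM. SORL1, a sorting receptor, fell by 2.46 and LRP5, a Wnt co-receptor, by 1.58. SORT1, which encodes sortilin, rose by 0.88, LRP12 by 0.57 and MYLIP, a ubiquitin ligase that degrades receptors of this family, by 0.68. LRPAP1, the chaperone of LRP1, fell by 0.54, a call lost with GC and length correction (-0.18, adjusted p = 0.0673).

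Of 17 partners of CD36, all tested, 4 were higher, 8 lower and 5 did not pass, with a median of -0.22. Their share called was 70.6%, against 63.1% of genes with a mean FPKM of at least 5. The integrin subunit ITGB1 fell from 1680 ± 26.9 to 695 ± 7.70 CPM, and the tetraspanin CD9, which binds both, from 58.0 ± 2.75 to 11.6 ± 2.16. Of the Src-family kinases that CD36 signals through, FYN fell by 0.71 while LYN rose by 0.28 and SRC by 0.35. TLR6, which pairs with CD36 and TLR4 on oxidised LDL, rose by 0.41. TLR4 fell by 0.49, a call lost in TPM (-0.24, adjusted p = 0.0893), and TLR2 fell by 0.91. FABP4, the fatty acid carrier, changed by -0.10 and did not pass (adjusted p = 0.460). In TPM, 5 of these partners were higher and 4 lower.

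Proteases that shed or process the receptors, with their inhibitors, had 5 of 9 tested genes higher, 2 lower and 2 that did not pass (median 0.29). Their share called was 77.8%, against 63.1% of genes with a mean FPKM of at least 5. ADAM17, which cleaves CD163 from the cell surface, rose by 0.38, and TIMP3, its inhibitor, rose by 0.33 from a level of 2675 ± 67.1 CPM. BACE1 rose by 0.39. RHBDF1, a cofactor of ADAM17, fell by 1.86. FURIN, the convertase that processes LRP1, fell by 0.69, but its log2 ratios were -0.87, -1.03 and -0.28 in siMCT4 libraries 1, 2 and 3 and its call was lost in 4 alternatives.

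Transcription factors known to act on these receptors gave 5 higher, 7 lower and 12 that did not pass among 24 tested, with a median of -0.04. Their share called was 50.0%, against 41.4% of all tested genes and 63.1% of genes with a mean FPKM of at least 5. PPARG, the lipid-activated nuclear receptor known to drive CD36, rose from 45.4 ± 3.06 to 108 ± 4.72 CPM (log2 change 1.25), in the direction opposite to CD36. Its partner RXRA fell by 0.94. NFKB1 rose by 0.79 and NFE2L2, the oxidative stress factor, by 0.72. SREBF2 fell by 0.49. NR1H3, which encodes the oxysterol receptor LXR alpha, fell by 0.25 and NR3C1, the glucocorticoid receptor, by 0.13; these calls were lost in 8 and 16 of 19 alternatives. CEBPA fell by 0.39, a direction that turned with GC correction (0.37, adjusted p = 0.131). SPI1, which encodes PU.1, changed by -0.02 (adjusted p = 0.941) but by 0.59 (adjusted p = 0.0002) with GC correction. Without siMCT4 library 3, 6 transcription factor genes were higher and 12 lower. Calls over all genes rose in that setting too, from 4116 higher and 4144 lower to 4894 and 4814. In TPM 11 transcription factor genes were higher and 5 lower.

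Of 21 genes of clathrin, caveolin and early endosome machinery, 8 were higher, 9 lower and 4 did not pass (median -0.03). Their share called was 81.0%, against 63.1% of genes with a mean FPKM of at least 5. The 5 listed subunits of the clathrin adaptor AP-2 split: AP2B1 fell by 0.77, AP2S1 by 0.95, AP2A1 by 0.99 and AP2A2 by 0.54, while AP2M1 rose by 0.24, a call lost in 7 of 19 alternatives. The endocytic adaptor NUMB fell by 0.46. The adaptor DAB2 rose from 759 ± 33.0 to 1290 ± 81.4 CPM, PICALM by 0.61 and the early endosome tether EEA1 by 0.99. Of 14 tested ligand-side and lysosomal partners, 7 were higher, 5 lower and 2 did not pass (median 0.35), so 85.7% were called against the same 63.1%. In TPM 6 of these partners were higher and 3 lower. LPL, the lipase that bridges lipoprotein to the cell, rose from 5082 ± 85.4 to 7552 ± 503 CPM. NPC1, which exports cholesterol from lysosomes, rose by 0.81. Downstream of CD163, HMOX1, which breaks down haem, rose by 0.68 and BLVRB, a biliverdin reductase, fell by 1.74. APOE, a ligand of LRP1, fell by 1.11, a call lost with GC correction (-0.12, adjusted p = 0.735), and PLTP by 0.58, likewise lost (-0.32, adjusted p = 0.115).

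**Figure D4:**
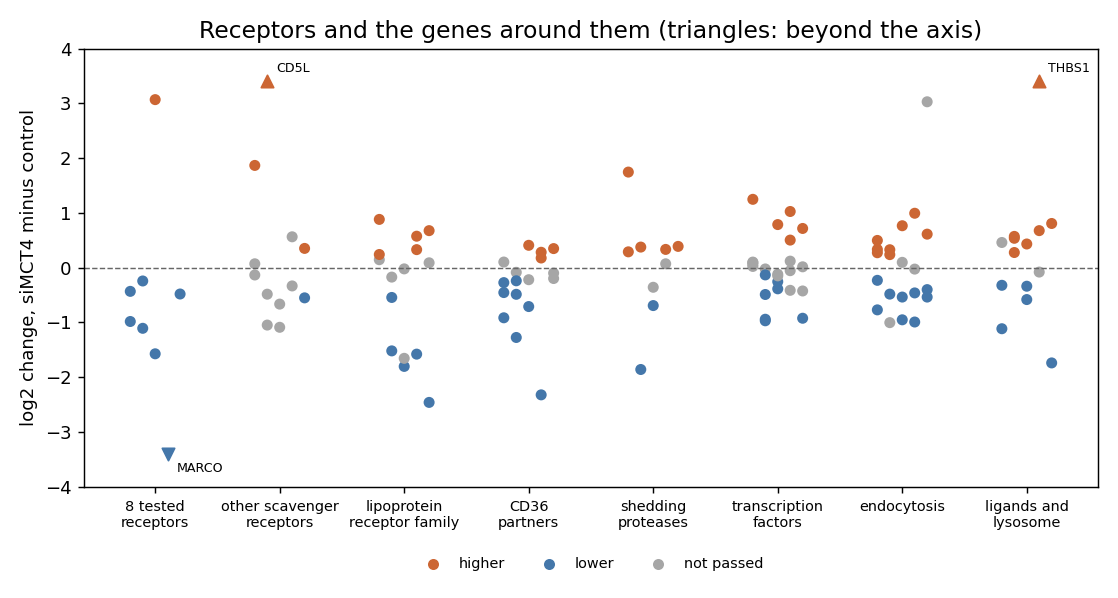
Log2 change of siMCT4 over control (vertical axis) for the 8 tested receptors and the tested genes of 7 lists around them; each point is a gene, orange higher, blue lower and gray not past an adjusted p of 0.05, with triangles for genes beyond the axis. The receptors have 1 orange point, OLR1, and 7 in blue, while the transcription factors have 5 and 7 and the endocytosis genes 8 and 9.

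Of 12 tested macrophage markers, 1 was higher, 7 were lower and 4 did not pass. Their share called, 66.7%, was near the 63.1% among genes with a mean FPKM of at least 5, and their summed level was 5805 to 5878 CPM in controls and 4900 to 5144 in siMCT4. CSF1R, the receptor for macrophage colony-stimulating factor, fell by 0.87, FCGR1A by 1.66 and CD14 by 1.99, while PTPRC, the pan-leukocyte CD45, rose by 0.33. The part of macrophage state in the receptors' falls was not tested. The markers' calls moved with the setting: 5 were higher and 5 lower with GC and length correction, 4 and 4 in TPM, 3 and 8 without siMCT4 library 3, and 1 and 4 without siMCT4 library 2. Fibroblast markers summed to 9.14 to 12.0 CPM in controls and to 37.7, 35.7 and 9.34 in siMCT4 libraries 1, 2 and 3, with 0 of 4 tested genes called; COL1A2 alone had 1892, 1782 and 0 counts there. The 2 tested lymphocyte markers gave 1 higher, CD79A (log2 change 2.90), from a sum of 0.845 to 1.08 CPM to 2.68 to 3.04. Hepatocyte and epithelial markers summed to 21.0 to 26.6 and 16.6 to 23.8 CPM, with 1 of 4 tested genes higher (KRT8, 2.37) and 1 lower (APOA1, -0.48), calls lost in 11 of 17 and 7 of 19 alternatives.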

How the data were processed

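Per the labels' protocols, libraries of polyadenylated RNA marked the strand and were read from both ends. The submitters' processing notes list the trimmer cutadapt 1.9, the aligner HISAT2 2.2.1 and GRCh38; a counting tool is not given in the sources used here. The authors deposited raw counts beside FPKM for 6 libraries, per the file headers. The deposited FPKM equals the count over a gene length and a library factor within 5% for 99.9% of values. Even numbers made up 58.7% to 60.9% of counts from 2 to 41.

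Counts as deposited were tested with edgeR 4.0.16 in R 4.3.3 (quasi-likelihood, two-sided, TMM scaling, group as the sole factor, Benjamini-Hochberg adjustment over 19944 genes). The filter was filterByExpr with a smallest count of 10 and total of 15. SE is the log2 change over the square root of F. CPM are TMM-scaled; SD is over 3 libraries. The fit was tested on simulated counts. GC and length came from the longest GENCODE v29 transcript (96.8% of tested genes), and the corrections used a loess offset of span 0.3. The 19 alternatives included DESeq2 1.42.0, limma 3.58.1 on FPKM and TPM, other scaling and filters, a replicate block and left-out libraries. Named genes are all receptors, SLC16A3, up to 3 called genes per list and direction by adjusted p, 16 genes whatever their values, and the 2 nearest profiles per receptor. TMEM52B, STAT6, CLDN5, KDR, COL1A2, TLR2, TLR4, AP2A1, AP2A2 and AP2M1, and the genes in the closing section, were named after their values were seen. Some genes meeting this rule are not reported here. The receptors and lists were chosen with earlier results of these data known.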

Additional observations from a re-analysis of the deposited data

How the results depend on the processing

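Under the 19 alternatives no receptor changed direction. The calls of CD36, OLR1, MARCO, SCARB1, SCARB2 and CD163 held in all of them, those of MSR1 in 14 and of LRP1 in 18. The log2 change ran from -1.08 to -0.78 for CD36, 2.73 to 3.14 for OLR1 and -1.76 to -1.15 for CD163. MSR1 also lost its call without siMCT4 library 1 (-0.20, adjusted p = 0.0584) and with limma on log2(FPKM + 1) (-0.12) and log2(FPKM + 0.1) (-0.13); the cause was not tested. The summed level was 0.777 of control in TPM and 0.676 in CPM per kilobase. Both keep the gene lengths implied by the deposited FPKM, so neither tests those lengths. In TPM the median of all genes moved by 0.13 and 6245 genes were called higher and 2886 lower, so 68.4% of calls were higher against 49.8%; with limma on FPKM it was 59.7% to 59.9%. Same-numbered libraries did not deviate together over all tested genes (correlations of -0.06, -0.00 and -0.05). These are deviations from the mean of only 3 libraries, so they do not settle whether the numbers mark pairs. With a replicate block, 1 receptor was higher and 7 were lower, and 3341 genes were called higher and 3580 lower. Leaving out 1 library gave 3409 to 4894 genes higher and 3160 to 4814 lower. The depth limits STAB1, and 3 libraries per group limit all tests.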

Other observations

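Genes within 200 kb of a receptor, without overlapping it, were looked at after their values were seen. Of 43 tested, 12 were higher and 9 lower, so 48.8% were called against 41.4% of all tested genes. Near OLR1, in the cluster of lectin-like receptors, CLEC7A, which encodes the fungal receptor dectin-1, went from 18, 49 and 70 counts to 123, 132 and 131 (log2 change 1.40, SE 0.447, adjusted p = 0.0397). GABARAPL1, an autophagy gene of the same interval, changed by 0.14 and did not pass (adjusted p = 0.266), and KLRD1 had at most 44 counts. Near CD36, SEMA3C, a secreted semaphorin, rose from 1719, 1889 and 1694 counts to 3936, 4576 and 4294 (log2 change 1.20, SE 0.0715), while CD36 fell. Near SCARB2, CXCL10, an interferon-induced chemokine, went from 0, 4 and 0 counts to 150, 165 and 31, and CXCL11 had 20, 4 and 9 against 63, 158 and 91. Among those that fell were BRI3BP near SCARB1, by 1.11, and near LRP1 the genes NAB2 by 0.85, SHMT2, an enzyme of serine and glycine metabolism, by 0.61 and NDUFA4L2 by 1.58.

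Several transcripts of the lists were high in siMCT4 libraries 1 and 2 and not in library 3. THBS1, which encodes thrombospondin, a ligand of CD36, went from 6, 3 and 0 counts to 809, 786 and 12. CAV1, the caveolin gene, went from 85, 61 and 50 to 850, 773 and 17. COLEC12, a class A scavenger receptor, went from 4, 0 and 0 to 108, 97 and 0, and KRT18 had 0, 0 and 4 against 172, 112 and 0. LRP11 went from 1571, 1558 and 1557 to 41, 1496 and 59, so that library 2 alone stayed at the control level.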
